A study of Mus musculus with 6 samples.

Results

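RNA of mouse pancreatic islets, the hormone-secreting clusters of the pancreas, was sequenced, and 10 genes known as markers of endocrine progenitors, of dedifferentiated beta cells or of beta-cell maturity were followed. They were chosen by name from the 54532 genes of the deposited table: Neurog3, Pax4, Fev, Sox9, Hes1, Sox4, Mycl, Cd81, Vim and Ucn3. The marker Aldh1a3, which belongs to the same theme, was not included. 3 libraries came from Ythdc1-betaKO mice, with Ythdc1 deleted in the insulin-producing beta cells (bKO), and 3 from Ythdc1flox/flox mice, which carry the floxed gene and no deletion (control). All mice were 7 weeks old, and each library was poly(A)-selected RNA of whole islets, in which beta cells sit among alpha, delta and PP cells, vessels, stroma and immune cells. The driver of the deletion was not given in the sources used here. YTHDC1 reads N6-methyladenosine (m6A) on RNA in the nucleus and takes part in splicing and export.

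During pancreas development, SOX9 and the Notch effector HES1 are active in progenitors of the duct-like epithelium, and HES1 represses Neurog3. When Notch signalling drops, the transcription factor NEUROG3 rises briefly and starts the endocrine programme, with FEV, PAX4 and SOX4 among the factors that act with it or after it. Adult beta cells that lose their identity under metabolic stress can again express progenitor genes, a state called dedifferentiation, while mature mouse beta cells are marked by the peptide UCN3.

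Expression is given as FPKM, read pairs per kilobase of a gene after scaling for depth, a level that can be compared between genes. Whole reads could be recovered from the deposited values, and they came to 16863329 to 18240339 per library. Ythdc1 was at 3.81, 3.79 and 3.87 FPKM in bKO and at 5.76, 6.46 and 6.18 FPKM in control, over all cells of the islet. For bKO replicates 2 and 3 the genotype label gives Ythdc1, but the description field names Ythdc2 for replicate 2 and Ythdc3 for replicate 3. Ins1, an insulin gene that defines beta cells, was at 34529 ± 1835 FPKM in bKO and 61085 ± 4260 FPKM in control (SD, n = 3 each). No group replicate pair agreed within sampling noise, so each library counted as 1 sample.

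Promoter sequences of 7 of the 10 genes were found in RefSeq (GRCm38.p6). Those of Hes1, Sox9 and Pax4 were not used here. The 250 bases before the RefSeq start are shown for the 5 called genes. Neurog3, Cd81, Ucn3 and Fev were higher in bKO, and Sox4 was lower. By the gene positions of the deposited table, the windows of Cd81, Fev and Sox4 reach into the gene. Those of Vim and Mycl lie wholly inside it. The capitals mark matches to the E-box CANNTG, the motif class that bHLH factors such as NEUROG3 bind.
Neurog3: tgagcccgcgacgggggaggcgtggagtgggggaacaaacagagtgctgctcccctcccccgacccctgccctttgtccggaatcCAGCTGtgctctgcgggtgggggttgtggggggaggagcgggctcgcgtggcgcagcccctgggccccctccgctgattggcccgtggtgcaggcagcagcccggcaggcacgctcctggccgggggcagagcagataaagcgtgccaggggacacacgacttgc
Cd81: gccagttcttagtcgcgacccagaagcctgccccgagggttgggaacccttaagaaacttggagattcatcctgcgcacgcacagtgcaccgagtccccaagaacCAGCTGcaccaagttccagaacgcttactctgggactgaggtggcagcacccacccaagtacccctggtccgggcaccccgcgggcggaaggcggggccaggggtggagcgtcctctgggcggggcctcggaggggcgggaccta
Ucn3: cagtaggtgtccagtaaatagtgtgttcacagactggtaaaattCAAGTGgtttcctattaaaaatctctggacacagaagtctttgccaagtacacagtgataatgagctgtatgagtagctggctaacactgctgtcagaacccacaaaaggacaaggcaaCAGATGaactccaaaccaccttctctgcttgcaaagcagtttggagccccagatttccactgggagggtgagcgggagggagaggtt
Fev: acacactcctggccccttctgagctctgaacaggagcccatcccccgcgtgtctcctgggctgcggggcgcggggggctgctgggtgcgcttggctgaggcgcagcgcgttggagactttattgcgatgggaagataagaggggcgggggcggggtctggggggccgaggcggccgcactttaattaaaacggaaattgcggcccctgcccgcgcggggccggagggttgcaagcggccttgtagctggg
Sox4: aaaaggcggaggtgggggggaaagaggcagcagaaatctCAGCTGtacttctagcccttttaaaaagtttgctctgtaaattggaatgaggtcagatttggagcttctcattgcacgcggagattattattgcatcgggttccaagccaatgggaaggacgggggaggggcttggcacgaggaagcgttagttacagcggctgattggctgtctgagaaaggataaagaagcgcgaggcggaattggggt
The windows lie at chr10:62132840-62133089 (plus strand), chr7:143052500-143052749 (plus strand), chr13:3945350-3945599 (minus strand), chr1:74885409-74885658 (minus strand) and chr13:28953700-28953949 (minus strand), in the order shown, and each sequence runs 5′ to 3′ towards its gene. Neurog3, Cd81 and Sox4 each held the form CAGCTG, which starts 165, 145 and 211 bases before the start. This form was in 13.0% of 32851 RefSeq windows of that length, and any CANNTG in 66.2% (both motifs read the same on both strands, and CAGCTG is 1 form of CANNTG). Ucn3 held CAAGTG and CAGATG, at 206 and 87 bases before its start. The windows of Fev and Vim held no CANNTG. The N-box CACNAG, bound by HES1, had a match for Sox4, Mycl and Vim, each on the strand of the gene itself, and none in the window of Neurog3. Of all windows, 36.7% had an N-box match on either strand. The RBPJ core TGGGAA, bound by the DNA-binding partner of Notch, matched Sox4, Cd81 and Fev, against 21.6% of all windows, both strands searched. Of these 3 genes, Cd81 and Fev rose in bKO and Sox4 fell, and binding at the matches was not tested. The windows of Neurog3 and Fev were rich in G and C, at 71.2% and 68.0%, that of Ucn3 was at 46.4%, and the median window was at 52.4%.

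The transcripts also differed in GGACT, a common form of the sequence in which m6A is placed. The longest coding transcript of Sox4, which is its only exon, held 9 copies in 4795 bases, or 1.88 per kilobase. The transcripts of Cd81, Fev and Ucn3 held 0 copies, and that of Neurog3 held 2 in 1540 bases, or 1.30 per kilobase. Pax4 was at 4.38, Mycl at 1.43, Hes1 at 1.36, Vim at 0.912 and Sox9 at 0.726 per kilobase. Among 12440 tested protein-coding genes the median was 1.05 per kilobase. 7.77% of them held no copy, or 15.5% of the 498 with transcripts of 1400 to 1600 bases, the length range of Cd81, Fev and Ucn3. Neither m6A nor YTHDC1 binding was measured here.

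Of the 10 genes, 8 passed the filter of at least 0.5 FPKM in at least 3 libraries. Neurog3, Fev, Cd81 and Ucn3 rose and Sox4 fell, in a limma fit over 15717 genes with Benjamini-Hochberg adjustment and a threshold of 0.05. In the same fit, 20.3% of all tested genes were called, 8.96% higher and 11.4% lower in bKO. For all 8 the groups did not overlap: 7 were higher and 1 lower in every bKO library, against 18.5% and 21.6% of all tested genes (40.1% in either direction). Sox9 passed the filter only through its bKO libraries, so the groups had to differ there, and these counts cover the genes that passed and not all 10. In whole-islet RNA, fewer cells of a type and less RNA per cell cannot be told apart.

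**Figure D1:**
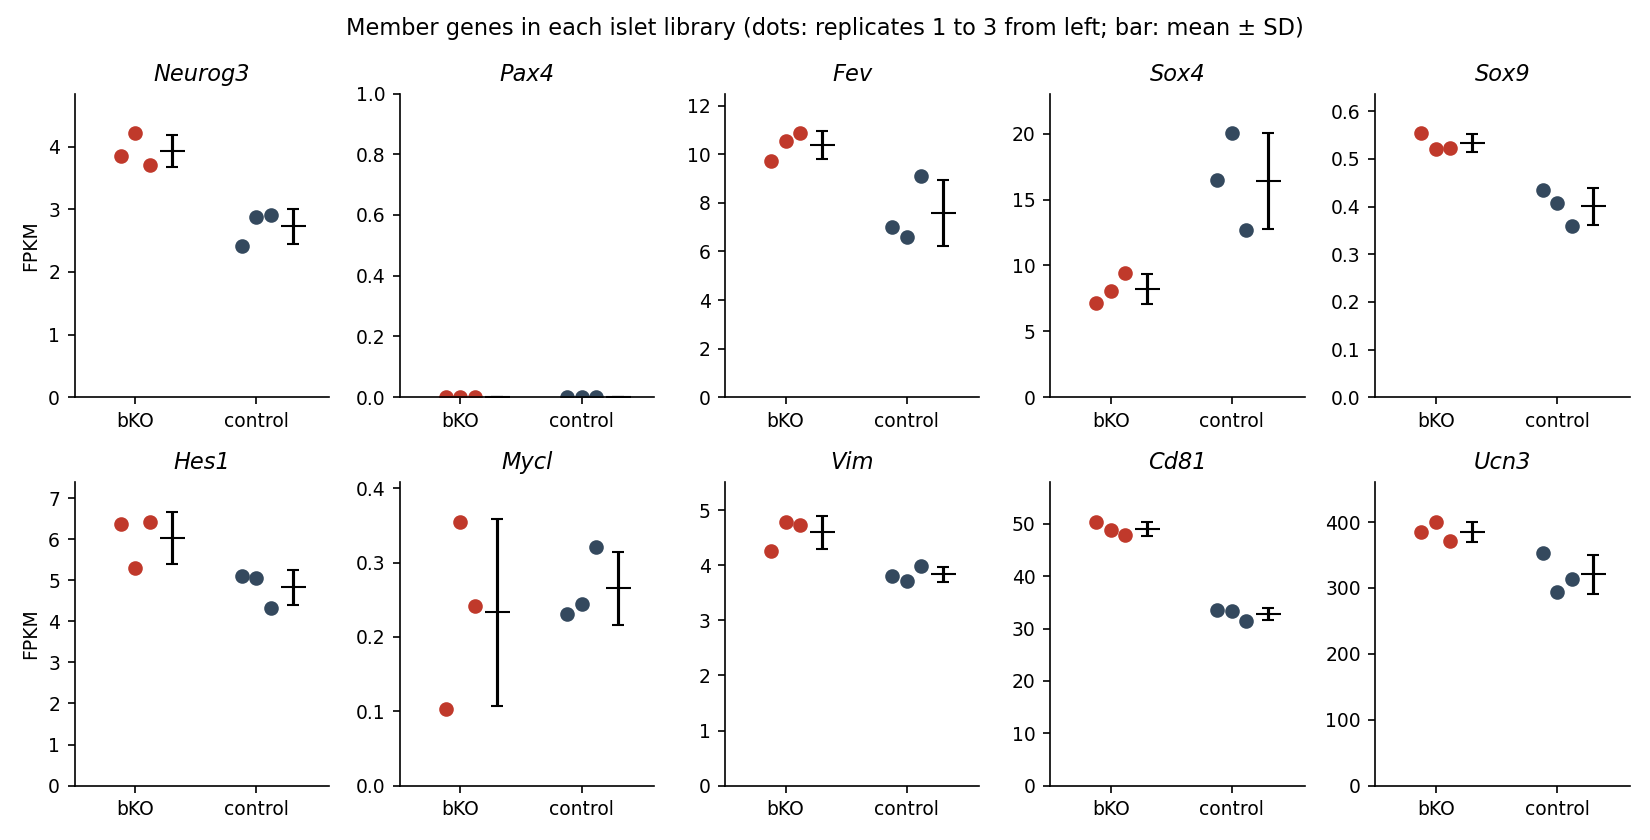
FPKM of the 10 genes in each library, bKO on the left and control on the right of each panel, with replicates 1 to 3 as dots and the mean ± SD as a bar (n = 3 each). The axes start at 0 and differ in scale. Sox4 is lower in every bKO library, Mycl overlaps between groups and Pax4 is at 0 in all 6 libraries.

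The 10 genes spanned a wide range of levels. In bKO the order was Ucn3, Cd81, Fev, Sox4, Hes1, Vim, Neurog3, Sox9, Mycl and Pax4. In control it was the same except that Sox4 stood above Fev, and in neither group did the ranges of neighbours overlap. Among 22046 protein-coding genes Ucn3 ranked 33 in bKO and 49 in control, and Cd81 ranked 543 in bKO and 1024 in control. Neurog3, at rank 7891 in bKO and 9015 in control, was far less abundant.

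Neurog3 (ENSMUSG00000044312, chromosome 10, 62133090 to 62134763, GRCm38, plus strand) encodes the bHLH factor that starts endocrine differentiation. It was at 3.86, 4.22 and 3.72 FPKM in bKO (124, 128 and 115 reads) and at 2.41, 2.88 and 2.91 FPKM in control (65, 83 and 79 reads). The lowest bKO library lay above the highest control library. The mean was 1.44 times that of control, a change of 0.40 on the log2(FPKM + 1) scale, which understates changes of low genes (SE 0.081, limma adjusted p = 0.015). The call was lost without bKO replicate 2, the highest library (0.36, limma adjusted p = 0.054). The gene lies inside Fam241b on the opposite strand and shares 16.3% of its exonic bases with it, and the sources used here do not say whether reads were counted by strand. Fam241b was at 5.57 to 6.42 FPKM in bKO and 6.50 to 7.37 FPKM in control, which is the other direction.

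Fev, an ETS factor that follows NEUROG3 in the endocrine lineage and also defines serotonergic neurons, was at 9.72, 10.5 and 10.9 FPKM in bKO and at 6.99, 6.60 and 9.12 FPKM in control. Control replicate 3 lay nearest to the bKO libraries. Fev rose by 0.42 on the log2(FPKM + 1) scale (SE 0.11, limma adjusted p = 0.039), 1.37 times the control mean. The call was lost without any bKO library or without control replicate 1 or 2 (0.34 to 0.46, limma adjusted p = 0.072 to 0.11). With control replicate 3 left out it was 0.54 (limma adjusted p = 0.0053).

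Pax4, a paired-box factor of the beta and delta lineages, had 0 reads in each of the 6 libraries. A count of 0 over 3 libraries allows up to 0.0372 FPKM in bKO and 0.0419 FPKM in control, from 3 reads over a group. The gene overlaps no other annotated gene, and 10 genes used by nearly all cells, such as Actb and Tbp, had values above 0 in every library. Pax4 mRNA was therefore not detected at this depth in either group.

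Genes that act downstream of NEUROG3 in endocrine differentiation did not move one way. Of 17 such genes 15 were tested, and 2 were higher and 4 lower in bKO. Btbd17 fell by 0.46 and Pax6, a paired-box factor that all islet endocrine cells keep, by 0.26 on the log2(FPKM + 1) scale. The HMG-box gene Tox3 rose by 0.28. When libraries were scaled by their totals in place of size factors, 8 of these genes were higher and 1 lower, Pax6 was at -0.09 and not called (limma adjusted p = 0.11), and the median of all tested genes moved from -0.01 to 0.13. Neurod1, a direct target of NEUROG3 named here after its values were seen, was at 57.2 ± 1.4 FPKM in bKO and 71.4 ± 3.7 FPKM in control (SD, n = 3 each), called lower except with total scaling or quantile normalization. Within a library, where scaling has no effect, Neurog3 stood at 65.6 to 71.8 FPKM per 1000 FPKM of Neurod1 in bKO and at 32.6 to 42.8 in control. Neurog3 was already called higher and Neurod1 lower, so this ratio had to separate the groups and adds no further evidence.

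Of 16 genes of the serotonergic programme that includes Fev, 7 were tested, with 1 higher and 2 lower (3 higher and 2 lower with total scaling, and 2 higher of 15 with no filter). Maob, a monoamine oxidase, fell by 1.23 and Ddc, the aromatic amino acid decarboxylase, by 0.58 on the log2(FPKM + 1) scale. Maoa, the other monoamine oxidase, rose by 0.45. The serotonin synthesis genes Tph1 and Tph2 were below the filter and not called without it, Tph1 at 0.0205 ± 0.013 FPKM in bKO and 0.0033 ± 0.0058 FPKM in control and Tph2 at 0.385 ± 0.26 FPKM in bKO and 0.322 ± 0.057 FPKM in control (SD, n = 3 each). Fev thus differed in direction from Maob and Ddc, the 2 with the smallest adjusted p. The median of the 7 tested genes was 0.18 on the log2(FPKM + 1) scale, the same direction as Fev and Maoa.

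Sox9 and Hes1, the progenitor factors upstream of Neurog3, were not called. Sox9, an SRY-related factor that adult duct cells keep, was at 0.554, 0.520 and 0.523 FPKM in bKO (44, 39 and 40 reads) and at 0.436, 0.407 and 0.358 FPKM in control (29, 29 and 24 reads). Its change was 0.13 on the log2(FPKM + 1) scale (95% interval -0.11 to 0.37, limma adjusted p = 0.42). From the summed reads its ratio was 1.33, and exact binomial limits for counting error alone put it between 0.999 and 1.78 (95%). These limits hold both no change and a ratio of 1.5, that of Cd81.

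Hes1, the bHLH repressor that Notch induces, was at 6.36, 5.31 and 6.43 FPKM in bKO and at 5.09, 5.04 and 4.33 FPKM in control. bKO replicate 2 lay close to the 2 higher control libraries. The change was 0.27 on the log2(FPKM + 1) scale (95% interval 0.06 to 0.48, limma adjusted p = 0.074). It was called without bKO replicate 2 (0.35, limma adjusted p = 0.044) and with libraries scaled by their totals (0.42, limma adjusted p = 0.015).

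Other genes of the Notch pathway gave no call in the fit on log2(FPKM + 1). Of 25 receptors, ligands and effectors, 22 were tested and 0 rose or fell, with a median of 0.01 on the log2(FPKM + 1) scale against -0.01 for all tested genes. The smallest adjusted p were those of Lfng, a glycosyltransferase that modifies Notch (0.41, limma adjusted p = 0.070), of the receptor gene Notch3 (0.28, limma adjusted p = 0.082) and of Dtx1 (-0.25, limma adjusted p = 0.090). With total scaling 7 of the 22 were called higher, among them Lfng and Notch3, at a median of 0.15 against 0.13 for all tested genes. By voom 4 were higher, Lfng and Notch3 among them, and 1, Dtx1, was lower. Without control replicate 2, 2 were higher, Notch3 among them. Of 15 other pancreatic progenitor factors 9 were tested, with 1 higher and 2 lower (4 higher and 1 lower with total scaling). Mnx1, a homeobox factor of early pancreas and of beta cells, fell by 0.74 and Foxa2, a forkhead factor of the endoderm, by 0.27 on the log2(FPKM + 1) scale, while Glis3, a zinc finger factor that acts with NEUROG3 and on the insulin gene, rose by 0.32. The call of Foxa2 was lost with total scaling (-0.10) and quantile normalization (-0.16), and that of Mnx1 without bKO replicate 1. Ptf1a, which acinar and progenitor cells use, had 0 reads in all 6 libraries.

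Sox4 (ENSMUSG00000076431, chromosome 13, 28948919 to 28953713, GRCm38, minus strand) is a single-exon gene for an HMG-box factor that endocrine formation needs and that adult mouse beta cells also express. It was at 7.15, 8.10 and 9.40 FPKM in bKO and at 16.5, 20.1 and 12.7 FPKM in control. Both groups spread more than for the other called genes, with control replicate 3 lowest among the controls and bKO replicate 3 highest among the bKO libraries. Sox4 fell to 0.5 times the control mean, by 0.91 on the log2(FPKM + 1) scale (SE 0.16, limma adjusted p = 0.01). It was called in all 15 settings, at -1.07 to -0.74. The lincRNA Gm26735 overlaps 54.6% of its exonic bases on the opposite strand and had 0 reads in each library. Of 14 other Sox genes 6 were tested and 0 called, against 2 higher with total scaling (Sox12 and Sox18) and 1 with voom (Sox10). On the log2(FPKM + 1) scale the change was 0.37 for Sox10, -0.17 for Sox13 and 0.23 for Sox7 (limma adjusted p = 0.10, 0.11 and 0.18).

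Mycl encodes L-Myc, a progenitor gene seen in dedifferentiated mouse beta cells, and was below the filter. It had 8, 26 and 18 reads in bKO (0.103, 0.355 and 0.241 FPKM) and 15, 17 and 21 reads in control (0.231, 0.244 and 0.321 FPKM). The bKO libraries spread over the whole control range, and the ratio of summed reads was 0.871 (95% counting interval 0.582 to 1.30). With no filter its change was -0.04 on the log2(FPKM + 1) scale (95% interval -0.25 to 0.17, limma adjusted p = 0.81). Of 12 other genes of the MYC, MAX and MXD family, all tested, 1 was higher and 1 lower (7 higher and 1 lower with total scaling, 3 higher and 1 lower with quantile normalization). Myc fell by 0.65 on the log2(FPKM + 1) scale (limma adjusted p = 0.019), lost without bKO replicate 1 or 2 or control replicate 1 or 2. Mnt, a MAX partner that opposes MYC, rose by 0.28, and Mlxip was at 0.11 (limma adjusted p = 0.11). The pluripotency genes Nanog and Pou5f1, reported with Mycl in dedifferentiated mouse beta cells, had 0 reads in all 6 libraries.

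**Figure D2:**
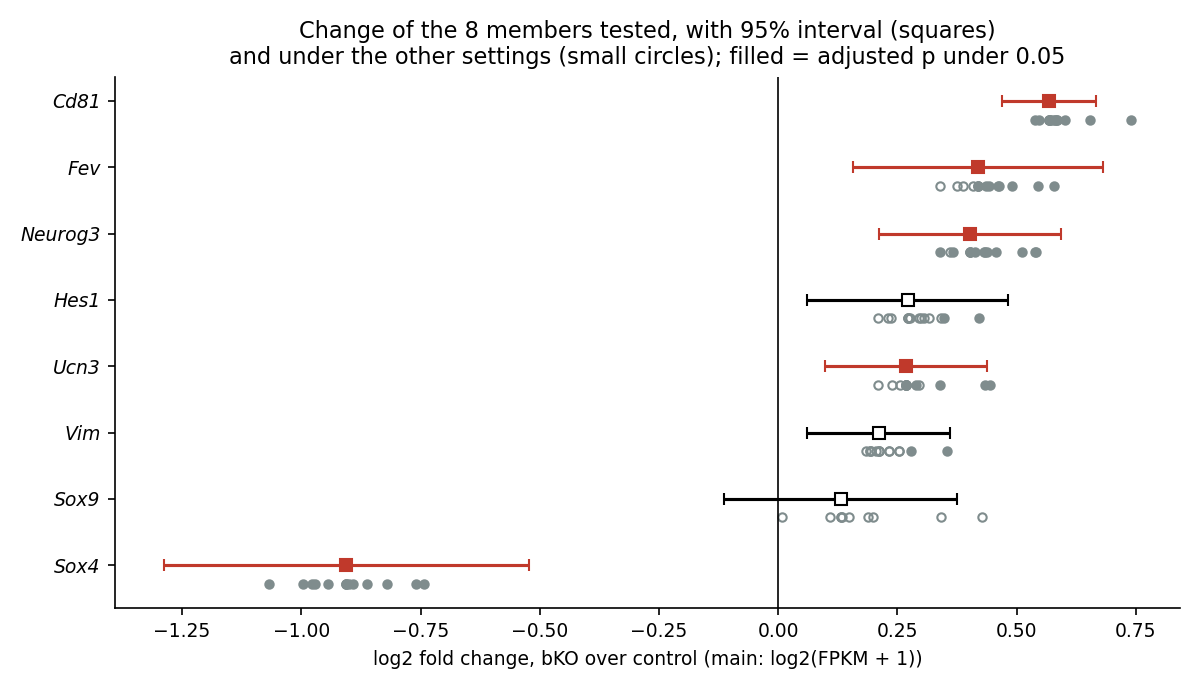
Change of the 8 tested genes in bKO over control, with squares for the fit on log2(FPKM + 1) and its 95% interval and small circles for the other settings, filled where the adjusted p was under 0.05. Cd81 and Sox4 are called in all 15 settings and lie on opposite sides of 0, while the circles of Fev and Ucn3 are partly open.

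Cd81 (ENSMUSG00000037706, chromosome 7, 143052739 to 143067934, GRCm38, plus strand) encodes a tetraspanin, a membrane organiser that marks immature and dedifferentiated beta cells in mice. It was at 50.4, 48.8 and 47.8 FPKM in bKO and at 33.5, 33.3 and 31.4 FPKM in control. The SD was 2.69% of the mean in bKO and 3.53% in control, and the groups were far apart. Cd81 rose by 0.57 on the log2(FPKM + 1) scale (SE 0.042, limma adjusted p = 0.00044), 1.5 times the control mean, and was called in all 15 settings at 0.54 to 0.74. It shares 3.61% of its exonic bases with R74862 on the opposite strand, which was at 0.602 to 0.738 FPKM in bKO and 0.639 to 0.940 FPKM in control.

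Other tetraspanins and partners of CD81 did not follow it as a group. Of 25, 23 were tested, with 2 higher and 4 lower and a median of -0.04 on the log2(FPKM + 1) scale. Cd9, a tetraspanin closely related to CD81, rose by 0.72. Igsf8, an immunoglobulin protein that binds CD81 and CD9, fell by 0.36 and the lysosomal tetraspanin gene Cd63 by 0.22. With total scaling 7 were higher and 1 lower, and Cd63 was at -0.04 on that scale (limma adjusted p = 0.44). The call of Cd63 was also lost with quantile normalization and without bKO replicate 3 or control replicate 1. The 4 falls became 2 without bKO replicate 1 or 2 or control replicate 2, 1 without bKO replicate 3 or control replicate 1, and 6 without control replicate 3, and Tspan3 and Tspan7, both tetraspanin genes, were called in only 6 of 15 settings. Within a library, Sox4 stood at 0.142 to 0.197 times Cd81 in bKO and at 0.405 to 0.602 times Cd81 in control. The 2 genes were already called in opposite directions, so this ratio had to separate the groups and adds no further evidence.

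Vim encodes vimentin, the intermediate filament of mesenchymal and endothelial cells that can also appear in dedifferentiated beta cells. It was at 4.26, 4.79 and 4.73 FPKM in bKO and at 3.80, 3.72 and 3.98 FPKM in control. The groups did not overlap, but the difference of 0.21 on the log2(FPKM + 1) scale was not called (95% interval 0.06 to 0.36, limma adjusted p = 0.059). It was called with voom on recovered reads (0.28, limma adjusted p = 0.032) and with total scaling (0.35, limma adjusted p = 0.0087). Of 18 other intermediate filament genes and partners 13 were tested, with 2 higher and 1 lower (9 higher and 1 lower with total scaling, and 4 of 18 higher with no filter). Nefm, a neurofilament gene, rose by 0.37 and Lmnb1, a lamin of the nuclear envelope, fell by 0.53. Prph, a neuronal filament gene, was at 3.42 ± 0.94 FPKM in bKO and 0.0303 ± 0.031 FPKM in control (SD, n = 3 each) and passed the filter only through the bKO libraries.

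Markers of other cell types moved in part with these genes, several of which those cells also express. Endothelial markers summed to 217 to 224 FPKM in bKO and 170.3 to 195 FPKM in control, and 7 of 11 tested rose and 0 fell. That count was 10 with total scaling, 4 with a replicate block or no filter, 3 without bKO replicate 3, and 4 without bKO replicate 1 or 2 or control replicate 1 or 2. The 12 mesenchymal markers summed to 55.98 to 61.1 FPKM in bKO and 54.3 to 58.4 FPKM in control, and 2 of 10 tested rose. Macrophage markers summed to 69.9 to 87.1 FPKM in bKO and 117 to 131 FPKM in control, and 4 of 11 tested fell. Duct markers summed to 168 to 189 FPKM in bKO and 92.7 to 105 FPKM in control, but without Spp1, which other cells also express, to 99.4 to 109 FPKM in bKO and 83.3 to 92.9 FPKM in control. The duct keratin Krt19 was at 0.417 ± 0.13 FPKM in bKO and 0.43 ± 0.23 FPKM in control, and the duct channel Cftr at 0.0881 ± 0.036 FPKM in bKO and 0.0492 ± 0.015 FPKM in control (SD, n = 3 each). Schwann cell markers summed to 8.16 to 10.6 FPKM in bKO and 5.08 to 7.28 FPKM in control, and 3 of 6 tested rose. That count was 4 with total scaling or voom, 1 with quantile normalization or a replicate block, and 0 of 3 tested with any bKO library left out. The Schwann markers no longer tested then had passed the filter only through the bKO libraries, so the groups had to differ there. Delta and PP cell markers summed to 16338 to 19381 FPKM in bKO and 9912 to 12102 FPKM in control. Lymphocyte markers summed to 1.27 to 2.18 FPKM in bKO and 4.56 to 7.30 FPKM in control, Cd79a alone being tested, and Cd3g had 0 reads. The groups did not overlap for the endothelial, macrophage, duct, Schwann, delta and PP and lymphocyte sums (exact permutation, two-sided, p = 0.1 for each, which is as low as 3 libraries a group allow), and the mesenchymal sums overlapped (exact permutation p = 0.5). Acinar and alpha cell sums overlapped between groups (147 to 216 FPKM in bKO and 76.3 to 258 FPKM in control, and 16831 to 20132 FPKM in bKO and 18500 to 22489 FPKM in control). The part of these cells in the values of Vim, Cd81, Hes1 and Sox9 was not tested.

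**Figure D3:**
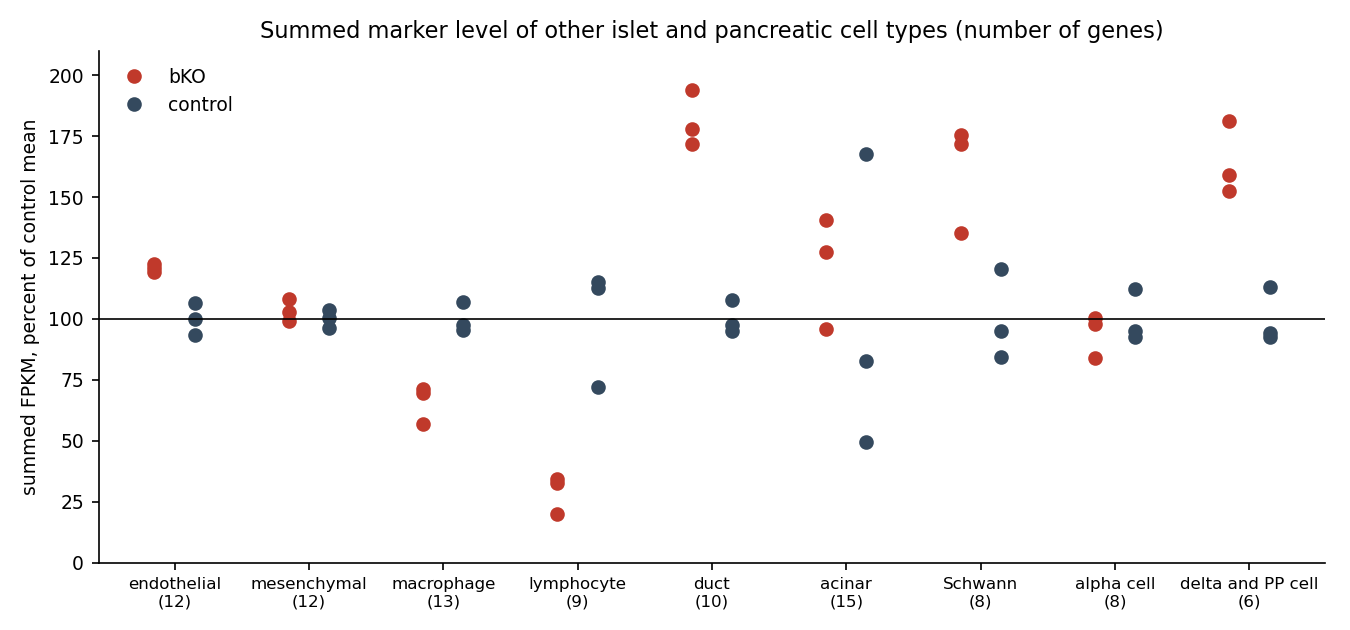
Summed FPKM of marker genes of 9 other cell types in each library, as percent of the control mean, with bKO on the left of each pair and the number of genes in brackets. Endothelial, duct, Schwann and delta and PP sums are higher and macrophage and lymphocyte sums lower in every bKO library.

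Ucn3 (ENSMUSG00000044988, chromosome 13, 3940688 to 3945349, GRCm38, minus strand) is the one gene of the 10 that marks maturity. It encodes urocortin 3, a peptide of the corticotropin-releasing factor (CRF) family that mature mouse beta cells release and that acts on delta cells through CRHR2. It was at 384, 401 and 371 FPKM in bKO and at 353, 294 and 314 FPKM in control. The groups did not overlap, and bKO replicate 3 and control replicate 1 lay closest. Ucn3 rose by 0.27 on the log2(FPKM + 1) scale (SE 0.072, limma adjusted p = 0.041), 1.2 times the control mean. The call was lost without any bKO library or without control replicate 2 or 3 (0.21 to 0.30, limma adjusted p = 0.069 to 0.12). With total scaling the change was 0.44.

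Of 15 other genes of mature beta cells, all tested, 13 fell and 1 rose, with a median of -0.67 on the log2(FPKM + 1) scale. Mafa, a transcription factor that mature beta cells acquire, fell to 145 ± 18 FPKM in bKO, against 423 ± 31 FPKM in control (SD, n = 3 each). Slc2a2, the glucose transporter GLUT2, fell by 1.21 and Ero1lb, an oxidase of insulin folding, by 1.08 on the log2(FPKM + 1) scale. These 3 genes were called in all 15 settings, and the list gave 10 to 13 falls over the settings. The gene that rose was Esrrg, a nuclear receptor of maturing beta cells, by 0.39, and Pdx1 was not called at 0.07 (95% interval -0.04 to 0.19). Within a library, Ucn3 stood at 2.51 to 2.98 times Mafa in bKO and at 0.733 to 0.782 times Mafa in control, and at 5.16 to 5.24 times Slc2a2 in bKO and at 1.69 to 1.99 times Slc2a2 in control. These ratios do not depend on library scaling and were chosen after the values were seen. Ucn3 was already called higher and Mafa and Slc2a2 lower, so the ratios had to separate the groups and add no further evidence.

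**Figure D4:**
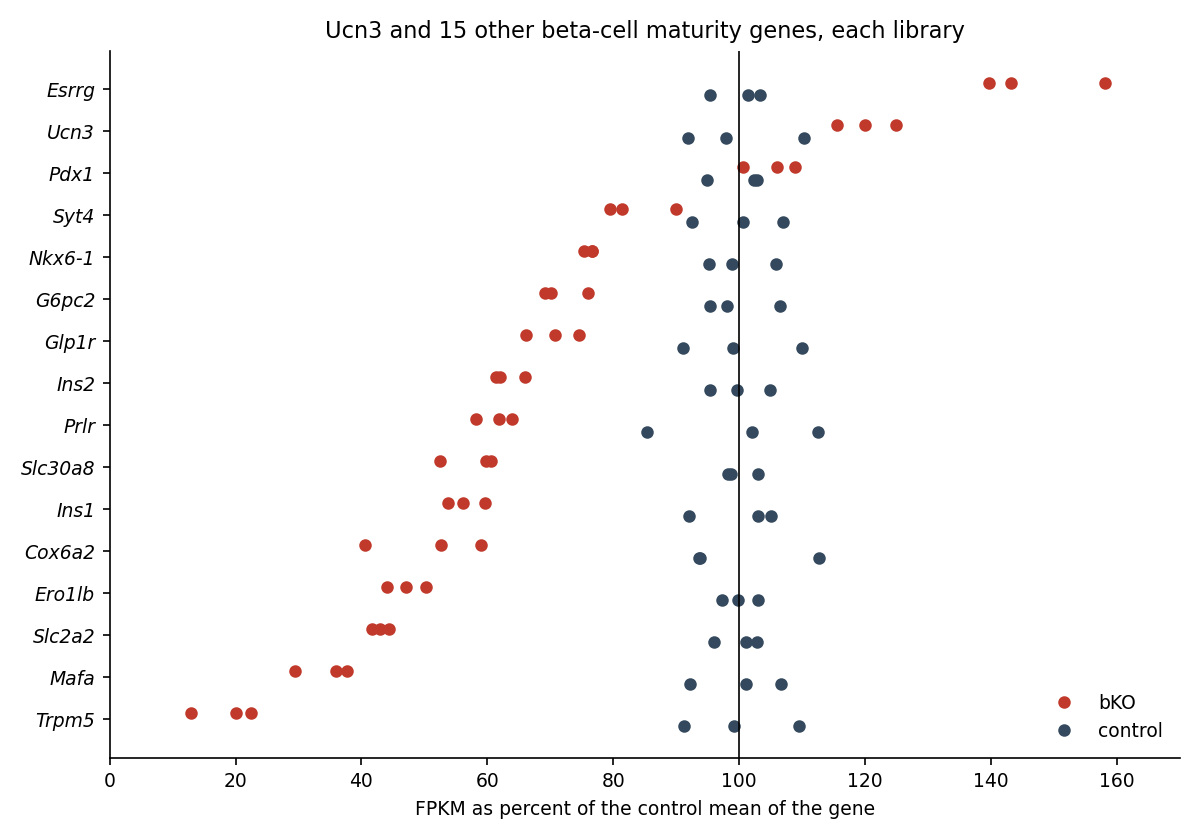
Level of Ucn3 and 15 other beta-cell maturity genes in each library, as percent of the control mean of the gene, with bKO dots above control dots. The bKO dots of 13 genes lie left of their control dots, and those of Ucn3 and Esrrg lie right of them.

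The other CRF family genes were low. Crh, Ucn and Ucn2 had 0 reads in all 6 libraries, and Crhr2, the receptor of UCN3, was at 0.46 ± 0.04 FPKM in bKO and 0.436 ± 0.068 FPKM in control. Crhr1 was at 0.167 ± 0.089 FPKM in bKO and 0.449 ± 0.084 FPKM in control (SD, n = 3 each). No gene of this list passed the filter, and 0 of 3 were called with no filter (limma adjusted p = 0.079 for Crhr1).

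A further 17 genes of immature or dedifferentiated beta cells were listed, of which 9 were tested and 5 rose and 0 fell, with a median of 0.41 on the log2(FPKM + 1) scale. Fabp3, a fatty acid binding protein gene, rose by 1.28, Dcx, a microtubule protein gene of migrating neurons, by 0.55, and Npy, the peptide neuropeptide Y, by 2.37. Npy was at 8.99 ± 2.2 FPKM in bKO and 1.05 ± 1.0 FPKM in control (SD, n = 3 each). The other rises were Klf4 and Cd24a, at 0.41 and 0.26, and both were lost without bKO replicate 1 or 3 or control replicate 2 or 3, Cd24a also without bKO replicate 2 or control replicate 1 (limma adjusted p up to 0.10).

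**Figure D5:**
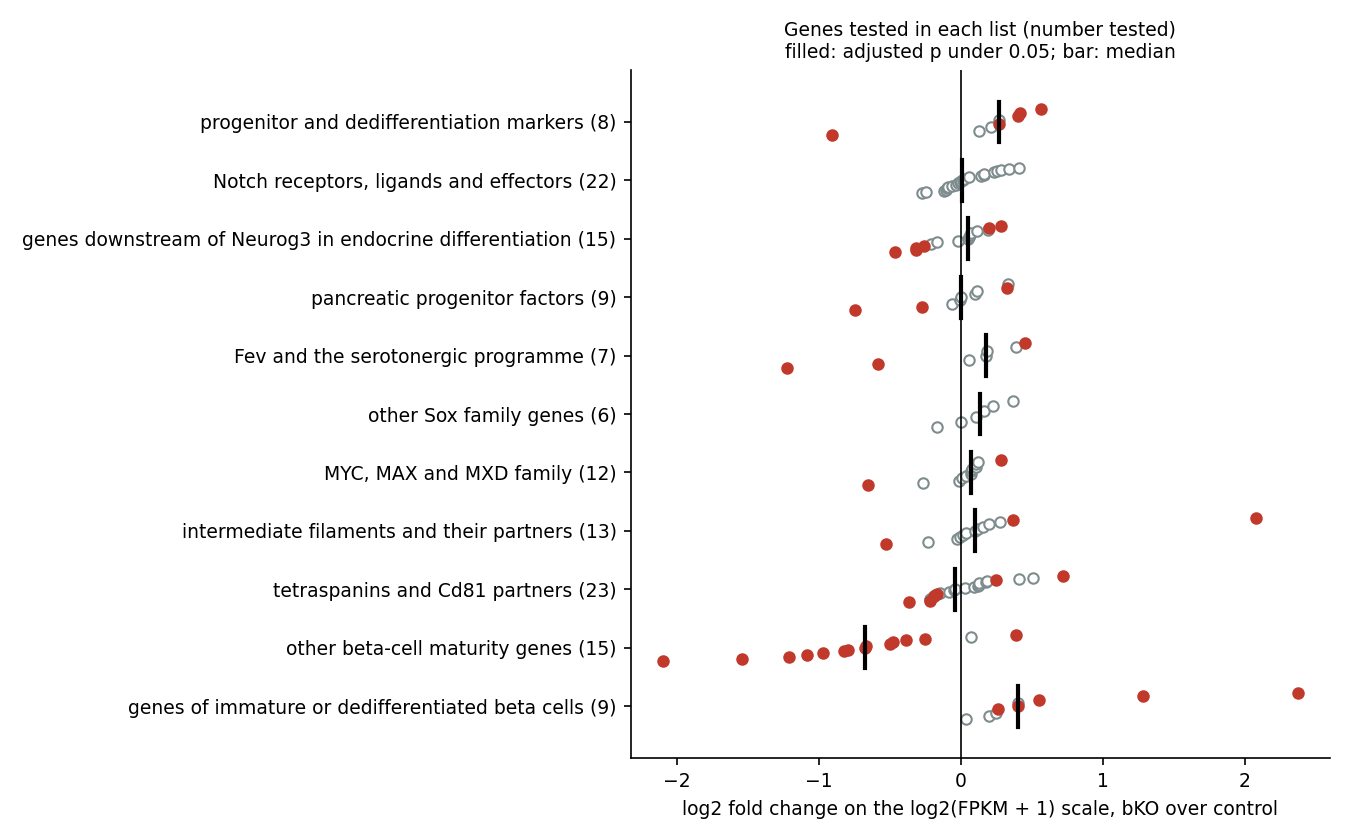
Change in bKO over control on the log2(FPKM + 1) scale for the tested genes of each list, with the number tested in brackets, filled dots for adjusted p under 0.05 and bars for the median. The 15 maturity genes lie mostly left of 0 (median -0.67) and the 22 Notch genes around 0 with no filled dot.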

How the data were processed

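Poly(A)-selected RNA of whole islets was sequenced as read pairs. Per the labels and the design text, HISAT2 2.0.5 placed the reads on GRCm38, and featureCounts 1.5.0-p3 counted them. CASAVA and DESeq2 1.20.0 are further tools in the submitters' processing notes, without a role. The sources used here give neither strand setting nor annotation release. The authors deposited 1 table of FPKM with gene lengths. Times gene length and 1 factor per library, 100% of the values above 0 came to whole reads within 0.01. Each factor was the product of a median-of-ratios size factor and the geometric mean of the totals, so the deposited FPKM carry size-factor scaling.

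limma 3.58.1 (R 4.3.3) with its mean-variance trend was fitted to log2(FPKM + 1), bKO against control, for genes that reached 0.5 FPKM in 3 or more libraries. P-values were adjusted over all tested genes by the Benjamini-Hochberg method, and the fit was tested on simulated data. In that test 15 of 158 calls were false. The fit recovered 58.2% of the genes set to differ 1.5-fold, 65.7% at 2-fold and 90.9% at 4-fold. Every simulated gene had the same spread beyond counting error (dispersion 0.00184, a median from the bKO libraries), and fewer genes differed than were called in the data. Sox4 and Fev spread more, with an SD of 22.3% and 17.9% of the mean in control, so these shares may not hold for such genes. The labels call the samples independent biological replicates. The genes, lists and tests were chosen with earlier results of these data known, so no list was tested for its count of calls. The marker lists, chosen with the same knowledge, were tested only as sums. Of each list the text names the up to 3 tested genes with the smallest adjusted p, and says where another was taken. Exact permutation tests, two-sided, compared marker sums. Counting intervals cover counting error only. Promoters came from RefSeq (GRCm38.p6), and transcripts and overlaps from GENCODE (GRCm38), whose positions of the 10 genes equalled those of the table. Alternatives were scaling by library totals, quantile normalization, no filter, a filter of 1 FPKM, pseudocounts of 0.1 and 0.5, voom on recovered reads, a replicate block and leaving out each library. Other steps used scipy 1.17.1, numpy 2.4.6, pandas 2.3.3 and Python 3.11.15, and figures matplotlib 3.10.9. A gene of the lists is not reported here by name.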

Additional observations from a re-analysis of the deposited data

How the results depend on the processing

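Cd81 and Sox4 kept their direction and call in all 14 alternatives, and Neurog3 in 13. Fev lost its call in 6 and Ucn3 in 7 of them, and no tested gene of the 10 changed sign. The number called higher among the 10 was 4, against 2 with no filter on low values, 6 with total scaling (Hes1 and Vim added) and 5 with voom (Vim added). Leaving out 1 library gave 2 to 3 higher and 1 lower. Over all genes, 1408 were higher and 1784 lower. Scaling by library totals gave 3702 higher and 737 lower, and voom gave 2134 higher. Leaving out 1 library gave 762 to 1227 higher and 1039 to 1608 lower. With the replicate number as a block, 925 genes were higher and 1152 lower, and Ucn3 was not called (limma adjusted p = 0.08). Same-numbered libraries did not deviate together (correlations of -0.05, -0.01 and -0.07 for numbers 1, 2 and 3), so the number is not taken as a pairing. Mnx1 also lost its call under the block. The values of Sox9 and Mycl rest on 24 to 44 and 8 to 26 reads per library. Where a setting changed a call, the cause was not tested.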

Other observations

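Other genes had profiles over the 6 libraries much like those of the called genes, by the root-mean-square distance of log2(FPKM + 1) values centred on the control mean, among 6951 protein-coding genes with a mean of at least 5 FPKM over all libraries. Nearest to Neurog3 were Zbtb20 (0.0367) and Oxtr (0.0492), to Cd81 Grin2c (0.0334) and Sult4a1 (0.0446), and to Ucn3 Rnf208 (0.0365) and Stk40 (0.0435). Nearest to Sox4 were P2ry1 (0.0683) and Syndig1l (0.125). P2ry1, a purinergic receptor gene, was at 13.2 FPKM in bKO and 26.1 FPKM in control. Nearest to Fev were Tmem86b (0.062) and 4930503L19Rik (0.0642). With 6 libraries and so many genes, near profiles are common.

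Several listed genes below the filter were near 0 in control, and they are named here after their values were seen. Tac1, the substance P precursor gene, was at 0.652 ± 0.20 FPKM in bKO and 0.0061 ± 0.011 FPKM in control. Htr3a, a serotonin-gated channel gene, was at 0.497 ± 0.091 FPKM in bKO and had 0 reads in control. The neurofilament gene Nefl was at 0.522 ± 0.21 FPKM in bKO and had 0 reads in control. Tspan1, a tetraspanin of epithelia, was at 0.581 ± 0.22 FPKM in bKO and 0.0615 ± 0.032 FPKM in control (SD, n = 3 each). In the fit with no filter all 4 were called higher (limma adjusted p = 0.012 for Tac1, 0.0050 for Htr3a, 0.023 for Nefl and 0.034 for Tspan1). So were the peptide gene Cck, at 0.165 FPKM in bKO and 0 reads in control (limma adjusted p = 0.0095), and the glial filament gene Gfap, at 0.227 FPKM in bKO and 0.0287 FPKM in control (limma adjusted p = 0.046).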
